A study of Mus musculus with 21 samples.

Results

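The gasdermins are proteins that, once cut, can form pores in cell membranes. All 9 mouse gasdermin genes that carried one of the symbols Gsdma, Gsdma2, Gsdma3, Gsdmc, Gsdmc2, Gsdmc3, Gsdmc4, Gsdmd and Gsdme were taken by symbol, out of 55491 genes, from the RNA-seq tables of skin and lymph nodes. The mice were BALB/c wild type (WT) or Ifnk transgenic (TG). The transgene carries interferon kappa, a type I interferon made by keratinocytes, under the Krt14 promoter of the basal epidermis and hair follicle. It was built on C57BL/6 by PiggyBac insertion and then crossed back onto BALB/c. Whole skin came from mice aged 12 months, with 3 WT libraries (replicates 8, 9 and 10), 2 TG nonlesional (NL) libraries (replicates 2 and 3) and 4 TG lesional (L) libraries (replicates 4, 5, 6 and 7). Inguinal nodes, which drain the skin, came from WT and TG mice, whose age the labels do not give, with or without ultraviolet B light (UVB) at 250 mJ/cm2, 3 days a week for 2 weeks with 2 further weeks of observation, and 3 libraries were made for each of these 4 groups. The labels give neither the sex nor the body site of each skin library, and lesions in this line were mostly facial, so site and disease cannot be told apart. The members were chosen with results from the lesional skin known. Values of the members in lesional skin are therefore given as a description, with no p, and where members past a fit's threshold are counted there, the share of all genes stands beside the count and nothing is read from it.

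In a gasdermin the N-terminal part makes the pore and the C-terminal part holds it in check until a protease cuts the linker between them. Pores release interleukin-1 family cytokines and can lead to pyroptosis, a lytic cell death. Gsdmd, widespread in myeloid cells, is cut by caspase-1 and by mouse Casp4, known as caspase-11. Gsdme is cut by granzyme B among others, Gsdmc by caspase-8, and Gsdma, a gasdermin of the skin and upper gut epithelium, by a streptococcal protease. Gain-of-function mutations of Gsdma3 cause hair loss in mice. RNA levels do not measure cleavage.

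The family sits at 4 places in the mouse genome (build GRCm38, GENCODE annotation). Gsdma3, Gsdma2 and Gsdma lie side by side on the plus strand of chromosome 11, at chr11:98626360-98638226, chr11:98646759-98657964 and chr11:98664351-98677708. Gsdmc, Gsdmc2, Gsdmc3 and Gsdmc4 lie side by side on the minus strand of chromosome 15, at chr15:63775968-63808759, chr15:63824346-63845177, chr15:63857724-63878558 and chr15:63891264-63912297. Gsdmd is at chr15:75862327-75867408 on the plus strand, and Gsdme at chr6:50188888-50263862 on the minus strand.

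The first 60 coding bases of the 3 Gsdma copies are shown because the copies are alike in sequence. Capitals mark bases that differ from Gsdma.
Gsdma: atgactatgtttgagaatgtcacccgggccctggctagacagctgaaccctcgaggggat
Gsdma2: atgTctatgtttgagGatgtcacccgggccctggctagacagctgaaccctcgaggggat
Gsdma3: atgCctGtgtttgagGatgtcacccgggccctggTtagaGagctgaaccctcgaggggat
In this stretch Gsdma2 differed from Gsdma at 2 bases and Gsdma3 at 5, and the 3 copies were 89.0% to 91.0% identical over the aligned coding bases, or 85.0% to 89.7% with gaps counted.

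The same stretch is shown for the Gsdmc copies, with capitals where a copy differs from Gsdmc.
Gsdmc: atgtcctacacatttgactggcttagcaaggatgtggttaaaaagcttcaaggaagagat
Gsdmc2: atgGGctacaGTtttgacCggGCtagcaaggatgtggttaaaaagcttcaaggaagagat
Gsdmc3: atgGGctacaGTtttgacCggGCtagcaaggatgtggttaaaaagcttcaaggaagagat
Gsdmc4: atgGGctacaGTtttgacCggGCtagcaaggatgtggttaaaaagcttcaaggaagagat
Gsdmc2, Gsdmc3 and Gsdmc4 were identical here and differed from Gsdmc at 7 bases. Over the aligned coding bases Gsdmc2 and Gsdmc3 were 97.1% identical, and each was 93.8% identical to Gsdmc4, or 93.0% with gaps counted. Gsdmc was less alike, at 87.0% to 87.5% identity with these copies, or 82.8% to 83.8% with gaps counted. Of all windows of 100 bases in the transcripts, 28.6% of those of Gsdmc2, 28.4% of Gsdmc3, 20.2% of Gsdmc4 and 7.03% of Gsdmc were also found in another gene, so the split of reads among Gsdmc2, Gsdmc3 and Gsdmc4 is uncertain. The share was 1.83% for Gsdma and 1.45% for Gsdma2, and no window of Gsdma3, Gsdmd or Gsdme was shared.

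For Gsdmd the coding bases around the known caspase-1 site are shown, as this is where the inflammatory caspases described later cut. Capitals mark codon 276, that of the aspartate after which the protein is cut.
Gsdmd: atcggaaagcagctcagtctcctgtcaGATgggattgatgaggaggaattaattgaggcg

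Among the RefSeq promoter windows (GRCm38.p6), 3 of the 9 members matched by symbol, namely Gsdma3, Gsdmc3 and Gsdme. The 250 bases before the start are shown for Gsdma3, whose RNA was higher in lesional skin, and for Gsdme, whose RNA was not. In Gsdma3, chr11:98626099-98626348 on the plus strand, capitals mark a match on the opposite strand to the core of the interferon-stimulated response element, searched as GAAA, any 2 bases and GAAA. In Gsdme, chr6:50261770-50262019 on the minus strand, capitals mark CpG pairs.
Gsdma3: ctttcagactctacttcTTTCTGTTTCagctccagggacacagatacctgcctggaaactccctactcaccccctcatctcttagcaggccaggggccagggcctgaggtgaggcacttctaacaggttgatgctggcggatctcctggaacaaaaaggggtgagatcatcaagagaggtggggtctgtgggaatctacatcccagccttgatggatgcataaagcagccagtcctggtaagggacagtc
Gsdme: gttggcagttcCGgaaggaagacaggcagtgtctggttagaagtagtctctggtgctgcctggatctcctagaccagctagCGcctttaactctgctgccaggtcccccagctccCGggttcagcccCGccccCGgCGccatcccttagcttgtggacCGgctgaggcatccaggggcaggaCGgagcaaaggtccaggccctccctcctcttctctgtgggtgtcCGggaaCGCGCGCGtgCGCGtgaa
The Gsdma3 window held 1 CpG and the Gsdme window 15, against a median of 6 over 32851 windows of this length. This core was found on either strand in 2.98% of all windows (978 of 32851) and in 1 of the 3 members' windows. TGANTCA, the core bound by AP-1, was searched on both strands and found in 6.75% of windows and in none of the 3. A match describes the letters and is not a binding site.

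Depth was 40499078 to 56511276 counts in the skin libraries and 27599809 to 36428435 in the nodes. Ifnk itself had 0 counts in all 3 WT skin libraries, 6 and 0 counts in NL replicates 2 and 3, and 5 to 14 counts in the 4 L libraries, so at this depth NL replicate 3 could not be told from WT by Ifnk. It had 0 counts in all 12 nodes, and whether transgene reads are counted under Ifnk was not tested. Of the 9 members, 8 passed the filter on low counts in skin, where 19101 genes were tested, and Gsdmc3 did not. In the nodes 2 members passed, Gsdmd and Gsdme, where 16173 genes were tested. In the nodes Krt14, a basal keratinocyte keratin, did not exceed 0.0302 CPM, and the summed T cell and B cell markers stood at 1670 to 2190 and 806 to 1660 CPM. Values are given as CPM, counts scaled to 1000000 per library after correction of the library size by the trimmed mean of M values (TMM), and levels of different genes are compared only per kb of transcript.

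Of the Gsdma cluster, Gsdma was the family's highest member per kb in 8 of 9 skin libraries. It stood at 24.7, 24.0 and 21.4 CPM in WT replicates 8, 9 and 10, at 48.4 and 44.2 CPM in NL replicates 2 and 3, and at 137, 208, 164 and 158 CPM in L replicates 4, 5, 6 and 7. The 3 groups did not overlap, with NL between WT and L. The group means were 23.3 ± 1.75 (SD, n = 3), 46.3 ± 2.92 (SD, n = 2) and 167 ± 30.0 CPM (SD, n = 4). L was 7.14-fold above WT (log2 difference 2.84, SE 0.16) and 3.6-fold above NL (1.85, SE 0.17).

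Gsdma3, the copy whose mutations cause hair loss, was far lower than Gsdma. It stood at 2.03, 2.04 and 2.57 CPM in WT, 5.33 and 3.78 CPM in NL, and 4.95, 16.5, 8.68 and 4.22 CPM in L replicates 4 to 7. All 6 TG libraries were above all 3 WT libraries, but NL and L overlapped, and the high L value came from replicate 5. L was 3.86-fold above WT (log2 difference 1.95, SE 0.48), while L against NL gave a log2 difference of 0.91 with an SE of 0.52.

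Gsdma2 was near the limit of detection outside the lesions. It had 2 to 6 counts (0.0495 to 0.142 CPM) in the WT libraries and 6 and 4 counts (0.115 and 0.0981 CPM) in NL. In L replicates 4 to 7 it stood at 2.02, 1.46, 0.33 and 1.24 CPM, all above the other libraries. The log2 difference was 3.49 (SE 0.68) from WT and 3.53 (SE 0.81) from NL.

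The Gsdmc cluster had the widest differences of the family. Gsdmc stood at 0.0228, 1.19 and 0.0989 CPM in WT replicates 8, 9 and 10, that is at 1, 50 and 4 counts. It stood at 1.32 and 0.441 CPM in NL and at 67.5, 55.6, 152 and 24.5 CPM in L replicates 4 to 7. WT and NL overlapped, and every L library was above both. The mean was 0.436 ± 0.651 CPM in WT (SD, n = 3), 0.88 ± 0.62 in NL (SD, n = 2) and 75.0 ± 54.6 in L (SD, n = 4). L was 171-fold above WT (log2 difference 7.42, SE 1.19) and 83.2-fold above NL (6.38, SE 1.34). The size of the difference from WT rests on WT replicate 9, since the log2 difference was 10.22 without that library. The difference from NL ran from 5.78, without L replicate 6, to 7.4, without NL replicate 2.

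Gsdmc2, Gsdmc3 and Gsdmc4 were close to 0 outside the lesions. Gsdmc2 had 0, 2 and 3 counts in WT, none in NL, and 122, 78, 151 and 49 counts in L replicates 4 to 7 (2.22, 1.92, 3.33 and 0.883 CPM). Set against a floor of 3 counts per library, its L mean was at least 29.3-fold higher than that of WT and at least 31.9-fold higher than that of NL. Gsdmc4 had 0, 6 and 0 counts in WT, 5 and 0 in NL, and 32, 22, 76 and 27 in L, where it stood at 0.583, 0.543, 1.67 and 0.486 CPM. All L libraries were above all WT and NL libraries for both genes. For Gsdmc4 the log2 difference was 4.03 (SE 1.18) from WT and 3.93 (SE 1.38) from NL. Without WT replicate 9 the WT libraries held no count of it, and without WT replicate 8, WT replicate 10 or L replicate 6 the difference from WT was 3.46, 3.49 and 3.43. Gsdmc3 had no counts in WT and NL and 8, 2, 3 and 3 counts in L, too few for a fold.

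Gsdmd, the main target of the inflammatory caspases, was 1.46-fold of WT and 1.78-fold of NL in L. It stood at 6.02, 8.43 and 7.54 CPM in WT, 6.31 and 5.69 CPM in NL, and 11.6, 8.49, 14.4 and 8.31 CPM in L. L overlapped WT, as L replicate 7 was below WT replicate 9, but lay above NL. The log2 difference was 0.55 (SE 0.23) from WT and 0.83 (SE 0.26) from NL, and the latter was 0.66 to 0.94 over the fits that left out 1 library. In 9 of 16 alternative fits the difference from NL kept its direction but changed its side of the threshold used in the counts below. Gsdme did not separate the groups, at 5.59, 5.46 and 7.47 CPM in WT, 5.49 and 5.59 CPM in NL, and 7.56, 6.68, 3.83 and 4.86 CPM in L. Its log2 difference was −0.11 (SE 0.25) from WT and 0.05 (SE 0.28) from NL.

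**Figure D1:**
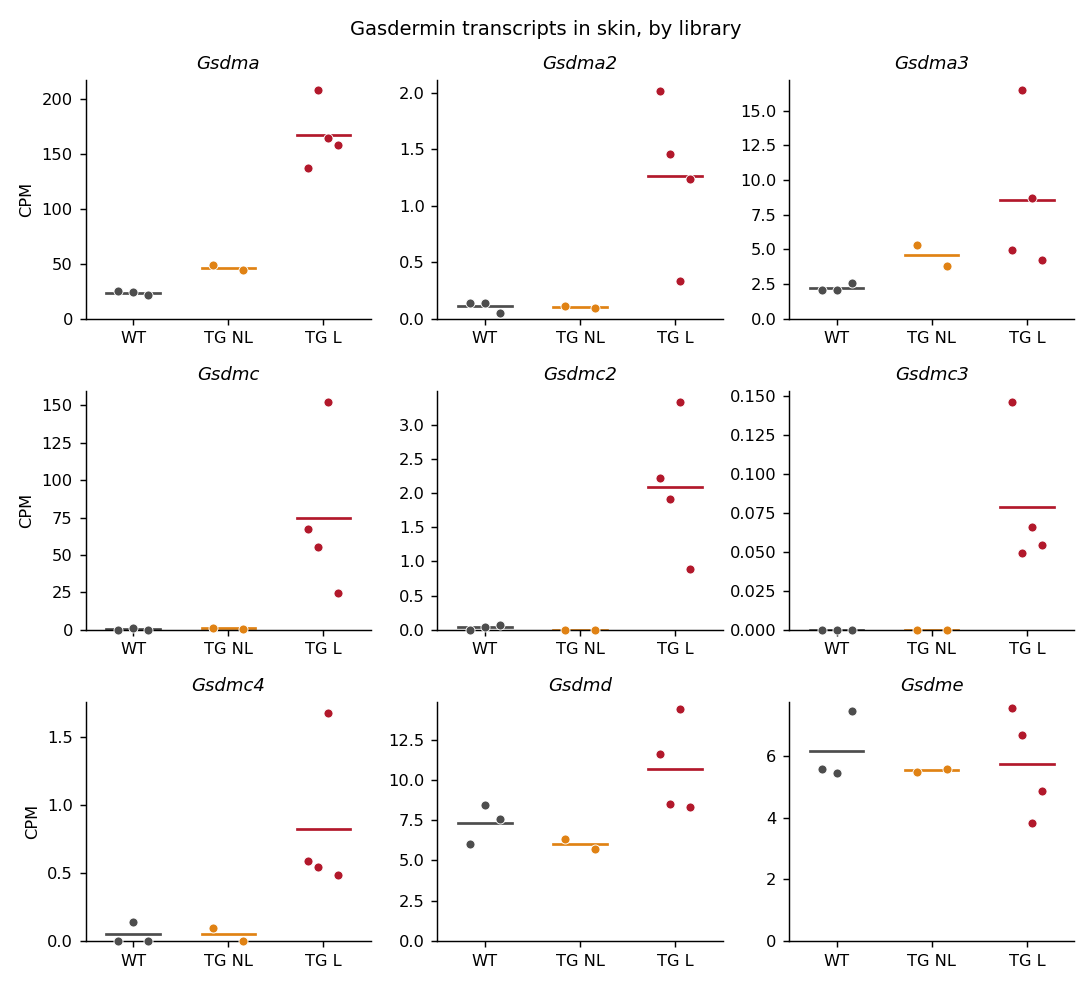
Level of each gasdermin in the 9 skin libraries, in CPM, with each point 1 library and the bar the group mean. Gsdma separates into 3 levels (means 23.3, 46.3 and 167 CPM), the Gsdmc copies are high only in the 4 L libraries of these 9, and Gsdme overlaps in all 3 groups.

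Counted over the family, 6 of the 8 members that passed the filter were past edgeR's threshold of adjusted p 0.05 between L and WT and all 6 were higher in L, where 43.1% of all tested genes were past it (8237 of 19101) and 23.0% were past it and higher (4386). The same 6 were above WT in every L library, as were 26.0% of all genes. Between L and NL, 5 of 8 members were past the threshold, all higher (Gsdma, Gsdma2, Gsdmc, Gsdmc2 and Gsdmd), where 25.0% of all genes were past it (4782) and 13.2% past it and higher (2519). Without NL replicate 2 or 3 these counts fell to 2 members and to 1470 or 1182 genes. In every L library Gsdma, Gsdma2, Gsdmc, Gsdmc2, Gsdmc4 and Gsdmd were above NL, as were 24.7% of all genes (4718). The members were chosen with the lesional values known, so nothing is read from these shares. L against WT and L against NL share the same 4 L libraries, and their values are given side by side only. In whole skin, fewer cells of a type and less RNA per cell cannot be told apart.

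Nonlesional TG skin was compared with WT to ask whether the family differs in TG skin outside a lesion. The NL and L libraries came from mice of the same age, so a stage before lesions was not tested. In this comparison the members were tested, with the same 3 WT libraries as above. Whether nonlesional values also entered the choice of members is not recorded, so these tests are not independent evidence. None of the 8 passed edgeR's quasi-likelihood test with Benjamini-Hochberg adjustment, as none of the 19101 genes did (0.0%), with 1465 genes at an unadjusted p under 0.05 and 79 genes called by DESeq2. Gsdma was 1.98-fold higher in NL (log2 difference 0.99, SE 0.17, 95% interval 1.53 to 2.58-fold), and the groups did not overlap. Its edgeR unadjusted p was 0.000237 and its adjusted p 0.417. DESeq2 called Gsdma, with an adjusted p of 0.00204, and over the other alternatives the adjusted p ran from 0.0599, with the compared groups alone, to 1.0. Gsdma3 was 2.06-fold higher (95% interval 0.89 to 4.76, edgeR adjusted p 0.696), also without overlap. Gsdma and Gsdma3 were the 2 of 8 members above WT in both NL libraries, which 18.6% of all genes were (3558). Summed markers of differentiated keratinocytes, described below, were also higher in NL, at 17000 and 16100 CPM against 8600 to 10800 in WT. Per 1000 CPM of these, Gsdma stood at 2.28 to 2.61 CPM in WT and at 2.85 and 2.75 in NL, while Gsdma3 overlapped. The part of keratinocyte RNA in these differences was not tested.

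The other members gave wide or small differences between NL and WT. For Gsdmc2, with 0 to 3 counts in WT and none in NL, the log2 difference was −3.97 (SE 1.95, edgeR adjusted p 0.686). For Gsdmc4 it was 0.11 (SE 1.54, edgeR adjusted p 0.997). The log2 difference of Gsdmc was 1.04 (SE 1.25, edgeR adjusted p 0.849) and that of Gsdma2 was −0.04 (adjusted p 1.0). Gsdmd was within 0.535 to 1.25-fold (95% interval) and Gsdme within 0.559 to 1.44-fold, with edgeR adjusted p of 0.812 and 0.913. With 2 NL libraries these intervals leave room for differences in both directions.

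**Figure D2:**
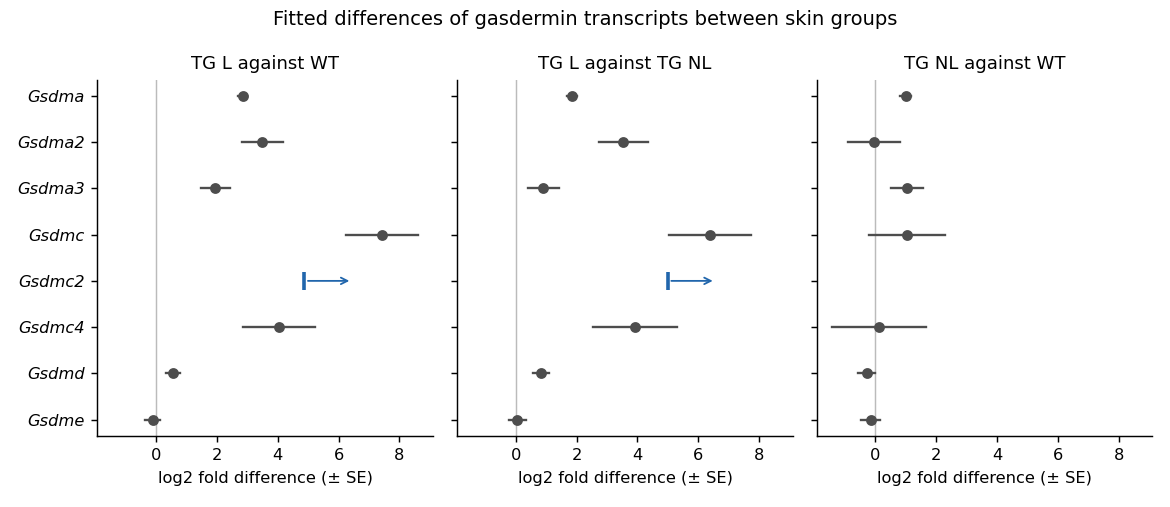
Log2 difference of each gasdermin in skin for L against WT, L against NL and NL against WT, with bars for the standard error. The blue arrows are lower bounds for Gsdmc2, which is not drawn in NL against WT, and Gsdmc3 is not drawn in any panel. Of the members drawn as points, Gsdmc is the farthest from 0 in both lesional comparisons (7.42 and 6.38), and Gsdma stands at 0.99 in NL against WT.

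The make-up of the family differed between the groups. Per kb, the order in WT skin was Gsdma (mean 8.57 CPM per kb), Gsdmd (4.09), Gsdme (2.47), Gsdma3 (1.5), Gsdmc (0.181), Gsdma2 (0.0655), Gsdmc4 (0.0228) and Gsdmc2 (0.0205), with Gsdmc3 at 0. The first 4 did not overlap with their neighbours in this order, and the members from Gsdmc downwards did. In L the order was Gsdma (61.1), Gsdmc (31.2), Gsdmd (5.97), Gsdma3 (5.81), Gsdme (2.29), Gsdmc2 (1.05), Gsdma2 (0.755), Gsdmc4 (0.394) and Gsdmc3 (0.0362). In L each member from Gsdma to Gsdmc4 overlapped with a neighbour in this order, except that Gsdmc lay above Gsdmd, so the order within these runs is not settled.

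The family summed to 16.1, 17.7 and 16.9 CPM per kb in WT, 27.7 and 24.4 in NL, and 93.8, 120, 142 and 78.9 in L replicates 4 to 7. Gsdmd made up 20.8% to 26.5% of that sum in WT, 12.7% and 13.0% in NL, and 3.94% to 6.92% in L. Gsdmc went the other way, with 0.0588% to 2.78% in WT, 0.751% and 1.98% in NL, and 12.9% to 44.7% in L. Gsdma held 46.4% to 56.2% in WT, 64.0% and 66.4% in NL and 42.5% to 73.3% in L. In L replicate 6 Gsdmc was slightly above Gsdma per kb, at 63.3 against 60.1 CPM per kb.

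**Figure D3:**
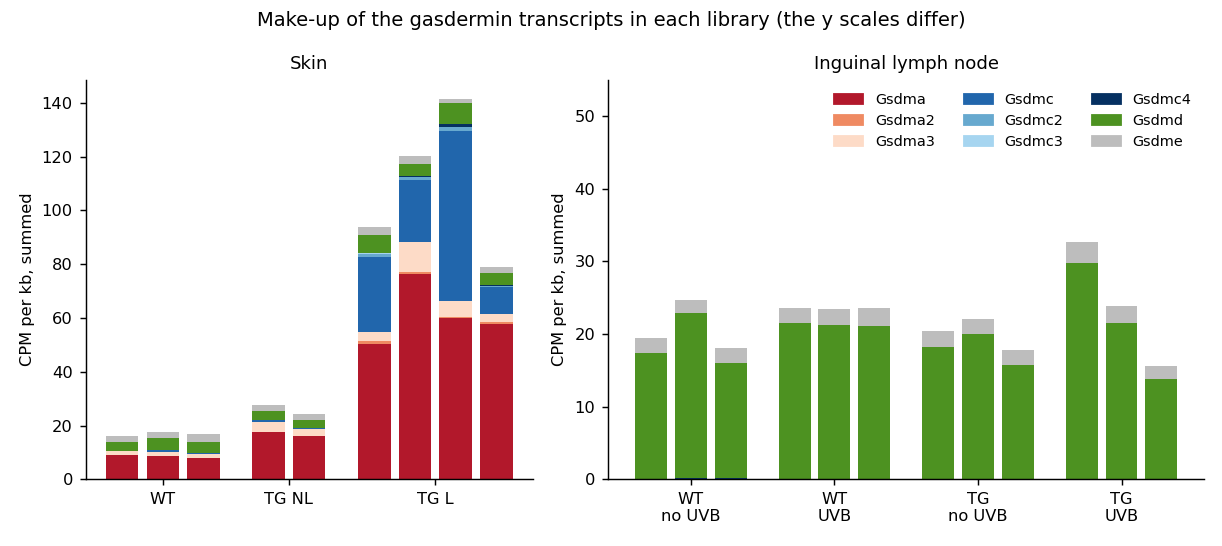
Stacked level of the gasdermins in each library, in CPM per kb of transcript, for skin and for nodes on separate scales. WT skin is mostly Gsdma, Gsdmd and Gsdme, L skin mostly Gsdma and Gsdmc, and the nodes mostly Gsdmd (87.2% to 92.6%).

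Marker RNA of other skin structures and cells moved along with these values. Of the hair shaft list, hair keratins with Hoxc13 and Foxn1, which regulate them, all 10 tested genes were higher in L than in WT, and their sum was 7.15 to 8.6 CPM in WT, 12.6 and 13.2 in NL, and 1910, 6030, 4860 and 6220 in L. All 7 inner root sheath genes were higher, from sums of 7.32 to 9.17 CPM in WT to 5330 to 21300 in L. All 4 stress keratins were higher too, with sums of 469 to 749 CPM in WT, 1210 and 1240 in NL, and 3890, 3650, 5380 and 1760 in L. Of 8 markers of differentiated keratinocytes 3 were higher, with sums of 8600 to 10800 CPM in WT, 17000 and 16100 in NL, and 21800, 14500, 16700 and 7340 in L. Of 6 basal keratinocyte markers 1 was higher, and of 6 sebaceous markers 3. Of 8 skeletal muscle markers 3 were lower, with sums of 29900 to 40900 CPM in WT and 26.4 to 7500 in L, and of 5 adipocyte markers 2 were lower. These are calls of edgeR's test of each gene at an adjusted p under 0.05, on lists chosen with earlier results of these data known. Of all 19101 tested genes 23.0% were past it and higher and 3851 were past it and lower, so the counts alone are not read as changes of a cell type.

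Of leukocyte lists, 4 of 6 neutrophil markers and 3 of 6 T cell markers were higher in L than in WT, against 23.0% of all genes. None of the 6 monocyte and macrophage markers or of the B cell markers were. Neutrophil markers summed to 10.4 to 20.3 CPM in WT and to 572, 145, 76.9 and 64.2 CPM in L replicates 4 to 7. T cell marker sums overlapped, at 25.5 to 35.3 CPM in WT and 24.0 to 62.1 in L. No gene of any marker list passed between NL and WT, as none of the 19101 tested genes did. Without a test, both NL sums lay above all WT sums for differentiated keratinocytes, stress keratins and hair shaft, as given above. The same held for basal keratinocytes (4250 to 5070 CPM in WT, 7530 and 8100 in NL). Adipocyte sums lay below WT (6330 to 9030 CPM in WT, 5290 and 5910 in NL), and those of the other lists overlapped. The part of hair, muscle or leukocyte RNA in the gasdermin values was not tested.

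Set against its marker sums, which was chosen after the values were seen, the ratio of Gsdma to keratinocyte markers was higher in L and its ratio to hair shaft markers lower. Per 1000 CPM of differentiated keratinocyte markers it stood at 2.28 to 2.61 CPM in WT, 2.75 and 2.85 in NL, and 6.28 to 21.5 in L. Per 1000 CPM of basal markers it stood at 4.87 to 5.17 in WT, 5.87 and 5.97 in NL, and 14.7 to 42.8 in L. Per 1000 CPM of hair shaft markers it stood at 2710 to 3360 in WT, 3340 to 3850 in NL, and 25.3 to 71.9 in L. Gsdma3 per 1000 CPM of differentiated keratinocyte markers overlapped, at 0.187 to 0.299 in WT, 0.235 and 0.315 in NL, and 0.227 to 1.14 in L. Gsdmc per 1000 CPM of stress keratins was 0.0348 to 1.59 in WT, 0.355 and 1.09 in NL, and 14.0 to 28.3 in L, and within L its order over libraries was that of the stress keratins. Gsdmd per 1000 CPM of macrophage markers was 6.22 to 10.6 in WT, 8.47 and 12.8 in NL, and 11.4 to 19.1 in L.

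**Figure D4:**
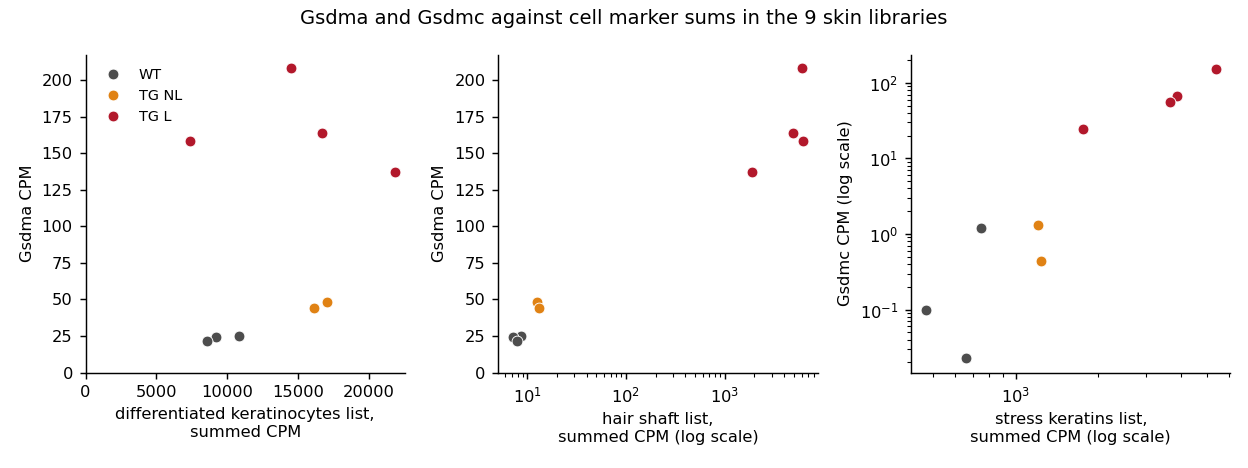
Gsdma against the summed markers of differentiated keratinocytes and of the hair shaft, and Gsdmc against the summed stress keratins, all in CPM, with 1 point a skin library. Gsdma in L lies above WT and NL at like sums of differentiated keratinocyte markers, and the 4 L libraries hold hair shaft sums of 1910 to 6220 CPM.

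The genes most like each member over the 9 skin libraries were found by Pearson's r of log2 CPM, for members with a mean of at least 1 CPM. The libraries share groups and differ in hair and muscle RNA, so these are descriptions. For Gsdma they were Plk3 (r = 0.997), Cyp2s1 (0.996), Cldn4 (0.995), Serpinb11 (0.994) and Slc9a3r1 (0.994). For Gsdmc they were Sprr2d (0.98), Dsg1c (0.979), Dnajb11 (0.977), Bhlha9 (0.974) and Rnaseh2a (0.973), where Sprr2d is a cornified envelope protein and Dsg1c a desmosomal cadherin. For Gsdma3 they were Tor4a (0.98), Ip6k1 (0.956), Hspa4l (0.956), Acer1 (0.956) and Tlcd1 (0.954). For Gsdmd they were Calhm6 (0.957), Samhd1 (0.951), Vcam1 (0.948), 4933412E12Rik (0.946) and Itgb2 (0.945), of which Vcam1 is an endothelial adhesion molecule and Itgb2 a leukocyte integrin. For Gsdme they were Pcdhb17 (0.911), Lysmd4 (0.903), Ergic2 (0.902), Ifngr2 (0.894) and Nudt3 (0.884), at lower r than for the other members. Among the members themselves, Gsdma and Gsdmc had an r of 0.93 and Gsdmc and Gsdmc4 of 0.96, while Gsdme had −0.34 to 0.08 with the others.

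Genes that act before and after the gasdermins were taken from lists of 44 genes in all, 41 of which were tested in skin. The lists were chosen with earlier results of these data known, so the tests of list genes are not independent evidence. Between L and WT 14 passed edgeR's test (13 higher, 1 lower), or 34.1% against 43.1% of all genes. Beside the 13 of 41 that were higher, 23.0% of all genes passed and were higher, a share that also stands beside the counts by list. Between L and NL 6 passed (5 higher, 1 lower), or 14.6% against 25.0%, where 13.2% of all genes passed and were higher. None passed between NL and WT, as none of the 19101 tested genes did. By list, 2 of 11 inflammasome sensors and adaptors, 3 of 8 proteases, 3 of 5 released cytokines and alarmins, 3 of 6 genes of membrane rupture and repair and 2 of 7 regulators were higher in L than in WT, and 1 of the 6 was lower. Over the lists the median log2 difference was between 0.22 and 0.96, against 0.06 over all genes. None of 4 necroptosis genes passed, with Ripk3 at a log2 difference of 0.82 (edgeR adjusted p 0.0563) and Mlkl at 0.85 (0.0716).

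Among the proteases, Gzmb, granzyme B of cytotoxic lymphocytes, stood at 0.137 to 0.148 CPM in WT, 0.268 and 0 CPM in NL, and 7.01, 4.07, 10.8 and 2.77 CPM in L (42.4-fold, edgeR adjusted p 0.00153). Gzma was 19.1-fold higher (edgeR adjusted p 0.0237), a granzyme whose known gasdermin target in humans, GSDMB, mice lack. The call of Gzma was lost without WT replicate 8 or 9, and without WT replicate 10, which held 23 counts, the other WT libraries held 2 and 0 counts. Casp1 was 1.53-fold higher (edgeR adjusted p 0.0242), a call lost without any 1 of the 3 WT libraries. Casp4 (log2 difference 0.79, edgeR adjusted p 0.0552), Casp8, which cuts Gsdmc (0.29, 0.0946), and the neutrophil proteases Ctsg (2.58, 0.102) and Elane (−0.78, 0.501) did not pass.

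Of the sensors and adaptor, Pycard, the adaptor ASC, stood at 21.2 to 23.9 CPM in WT, 33.2 and 32.6 in NL, and 105, 75.3, 59.1 and 44.8 in L. It was 3.18-fold higher in L than in WT (edgeR adjusted p 0.00143) and passed against NL as well (log2 difference 1.11, adjusted p 0.0268). Mefv, pyrin, was 3.78-fold higher (edgeR adjusted p 0.0385), a call lost in 7 of 9 fits that left out 1 library (adjusted p up to 0.0874), WT, NL and L libraries among them. Nlrp3 stood at 39.1 CPM in L replicate 4 and at 1.14 to 3.22 CPM in the other L libraries, and did not pass (edgeR adjusted p 0.258).

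Of the released molecules, Il1a was 3.69-fold higher in L than in WT (edgeR adjusted p 0.00505), at 2.84 to 4.7 CPM in WT, 8.91 and 8.76 in NL, and 25.4, 15.2, 10.1 and 8.77 in L. Il1b was 46.2-fold higher (log2 difference 5.53, SE 1.66, edgeR adjusted p 0.0282), but L replicate 4 held 366 CPM and the other L libraries 11.8 to 17.4. The log2 difference of Il1b was 2.68 without L replicate 4, the library with the highest neutrophil marker sum, and its call was lost without any 1 of the 3 WT libraries. Hmgb1 was higher by 0.47 on the log2 scale (edgeR adjusted p 0.00622). Il18 (log2 difference 0.96, edgeR adjusted p 0.0597) and Il33 (−0.49, 0.42) did not pass.

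Membrane repair by ESCRT-III, which removes gasdermin pores, was mixed. Vps4b (log2 difference 0.47, edgeR adjusted p 0.00364), Chmp4b (0.48, 0.015) and Chmp2a (0.33, 0.0327) were higher in L than in WT, and Vps4a fell by 0.48 (adjusted p 0.00166). Without 1 library the call of Chmp2a was lost in 7 of 9 fits (edgeR adjusted p up to 0.0987), and that of Chmp4b without WT replicate 8 or 10 (up to 0.0554). Ninj1, which ruptures the membrane after pore formation, did not pass (−0.48, edgeR adjusted p 0.235). Among the regulators Trp53, which encodes p53, a known activator of Gsdme, was 1.76-fold higher (edgeR adjusted p 0.00367) and Il13, a type 2 cytokine, was higher by 1.94 (0.024), while Irf1 (1.29, 0.0514) and Irf2 (−0.19, 0.256), interferon regulatory factors that act on the Gsdmd promoter, did not pass. Il13 had few counts, with 9, 4 and 5 in WT, 5 and 12 in NL, and 19, 24, 38 and 24 in L. Its call was lost without WT replicate 9, WT replicate 10 or L replicate 6 (edgeR adjusted p up to 0.0806).

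Between L and NL the genes past the threshold were Gzmb (log2 difference 5.41, edgeR adjusted p 0.00714), Gzma (5.09, 0.0455), Pycard (1.11, 0.0268), Mefv (2.73, 0.0361) and Hmgb1 (0.42, 0.032), all higher in L, and Vps4a (−0.41, 0.0108), lower in L. Gzmb passed in all 9 fits that left out 1 library. The other calls were lost without either NL library, and NL replicate 3 held 0 counts of Gzmb and Gzma. The call of Gzma was also lost without WT replicate 8 and without any 1 of L replicates 4, 5, 6 and 7. Those of Mefv and Hmgb1 were also lost without WT replicate 9.

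**Figure D5:**
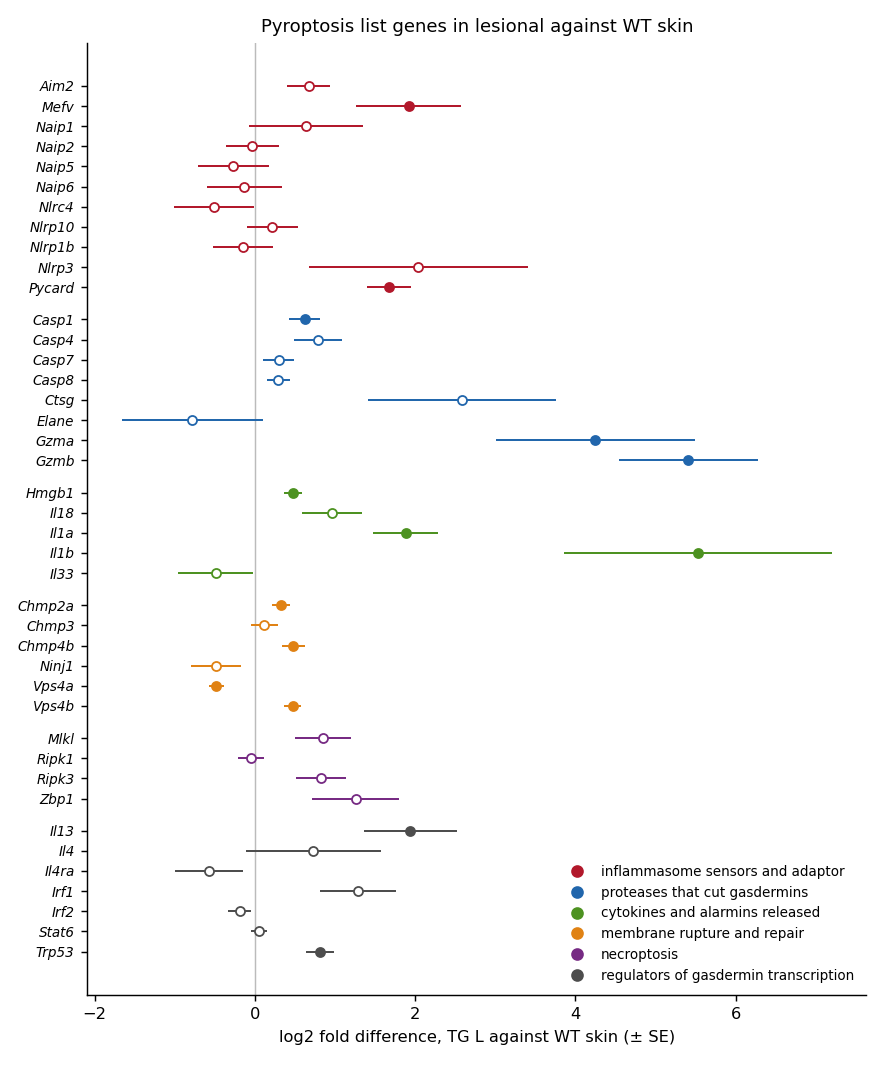
Log2 difference between L and WT skin for the tested genes of each pyroptosis list, with bars for the standard error and filled points for edgeR adjusted p under 0.05. Of 41 genes 14 are filled, with Il1b (5.53) and Gzmb (5.41) farthest from 0 and Vps4a (−0.48) the 1 that was lower.

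In the nodes the Gsdma and Gsdmc members were hardly detected. Gsdma, Gsdma2, Gsdma3, Gsdmc and Gsdmc2 had 0 counts in all 12 libraries, which allows up to 3 counts, or 0.0811 to 0.109 CPM, in a library. Gsdmc3 had 1 count in TG UVB replicate 11. Gsdmc4 had 1, 9 and 11 counts in WT without UVB, 1, 0 and 1 in WT with UVB, 3, 3 and 5 in TG without UVB and 2, 0 and 0 in TG with UVB, below the filter.

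Gsdmd was the main member in the nodes, at 31.2, 40.9 and 28.4 CPM in WT without UVB, 38.6, 38.1 and 37.9 in WT with UVB, 32.7, 35.8 and 28.2 in TG without UVB, and 53.2, 38.5 and 24.7 in TG with UVB (replicates 10, 11 and 12). The groups overlapped, and the highest and the lowest value were both in TG with UVB. Gsdme stood at 5.13, 4.23 and 5.4, at 5.2, 5.45 and 6.1, at 5.62, 5.22 and 4.96, and at 7.47, 5.74 and 4.47 CPM in the same order of groups. TG UVB replicate 10 was the highest for both genes.

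Neither member passed in any node comparison. For UVB against no UVB in WT nodes the log2 difference of Gsdmd was 0.19 (SE 0.22, 95% interval 0.813 to 1.6-fold, edgeR adjusted p 0.628) and that of Gsdme 0.18 (0.846 to 1.52-fold, 0.595), while 4.98% of all genes passed (805 of 16173), a count that ran from 0, without WT UVB replicate 8, to 2644, without TG UVB replicate 12. In TG nodes UVB gave 0.27 for Gsdmd (95% interval 0.858 to 1.69-fold, edgeR adjusted p 0.756) and 0.16 for Gsdme (0.836 to 1.5-fold, 0.841). Without TG UVB replicate 10 these were −0.03 and −0.04. None of the 16173 genes passed in TG nodes (0.0%), with 1507 at an unadjusted p under 0.05 and 137 called by DESeq2, and without TG UVB replicate 12 edgeR called 236.

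Genotype made no detectable difference to the node gasdermins. Without UVB TG against WT was −0.06 for Gsdmd (95% interval 0.685 to 1.35-fold) and 0.1 for Gsdme (0.798 to 1.43-fold), both with an edgeR adjusted p of 1.0. After UVB it was 0.02 for Gsdmd (0.724 to 1.43-fold, edgeR adjusted p 0.984) and 0.08 for Gsdme (0.789 to 1.41-fold, 0.94). The interaction of UVB with genotype was 0.08 for Gsdmd (95% interval 0.654 to 1.71-fold, edgeR adjusted p 0.973) and −0.02 for Gsdme (0.653 to 1.49-fold, 0.995). No gene of 16173 passed edgeR's test in the TG against WT comparison without UVB (0.0%), in that after UVB (0.0%), or in the interaction (0.0%), with 549, 1131 and 881 genes at an unadjusted p under 0.05 and 2, 19 and 8 called by DESeq2.

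Of the 37 list genes tested in the nodes, 4 passed with UVB in WT nodes (10.8%, against 4.98% of all genes) and none in the other node comparisons. Pycard was 0.63-fold of the value without UVB (log2 difference −0.67, edgeR adjusted p 0.0318), Vps4b fell by 0.37 (adjusted p 0.028) and Chmp3 fell by 0.29 (0.0358). Irf1 was 1.45-fold higher (log2 difference 0.53, edgeR adjusted p 0.0303). Leaving out 1 of the 12 libraries at a time, which moved the count over all genes as given above, ended the call of Pycard in 4, of Vps4b in 5, of Chmp3 in 8 and of Irf1 in 5, in each case among them WT UVB replicates 8 and 9, with edgeR adjusted p up to 0.149. Whether the response in WT nodes differed from that in TG nodes was tested by the interaction, which none of these genes passed.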

How the data were processed

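RNA was measured by poly-A paired-end RNA-seq in 9 skin and 12 inguinal node libraries. Per the submitters' processing notes, reads were trimmed with cutadapt 4.8, checked with FastQC 0.11.8 and MultiQC 1.20, aligned to GRCm38 with STAR 2.7.8a and quantified with RSEM 1.3.3; the annotation release is not given in the sources used here. The authors deposited expected counts per gene, which are whole numbers in the files and are not normalized. RSEM divides reads between near-identical genes by estimate, which bears on the Gsdmc copies.

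Skin and nodes were fitted separately across all genes with edgeR 4.0.16 in R 4.3.3, by the quasi-likelihood test with TMM scaling, after a filter on low counts (filterByExpr, minimum count 10, minimum total 15), and p-values were adjusted by Benjamini-Hochberg at 0.05. Intervals are at 95%, and a floor of 3 counts per library stands for 0; both cover no source of error beyond their model, and the floor covers counting error only. DESeq2 1.42.0, other scalings, no filter, summed paralogs, the compared groups alone, hair and muscle genes left out of the scaling and each library left out were tried. Depth limits the members with few counts. All libraries are in 1 batch per the labels, which do not tie libraries to mice, so p-values measure the spread between these samples. The members, gene lists and marker lists were chosen with earlier results of these data known. All 9 members are named, list genes past the threshold are named first, and the 5 genes of highest r per member are named as most alike. Coordinates and coding sequences come from GENCODE M21 on GRCm38, promoters from RefSeq. A gene of the protease list is not reported here and was left out of the list counts.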

Additional observations from a re-analysis of the deposited data

Results flagged for a closer look

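Gsdmc4 in L replicate 6 stood apart from the other L libraries, at 1.67 CPM (76 counts) against 0.486 to 0.583 CPM. The gap to its neighbour, as a share of the group's range, was past Dixon's 95% critical value for 4 samples. Chance does so in about 1 of 20 groups, and 9 groups of 4 were looked at. Leaving the library out gave a log2 difference of 3.43 from WT.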

How the results depend on the processing

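No paired analysis was possible because the labels do not tie libraries to mice, so whether the groups compared share mice is not known. With all Gsdma copies summed into 1 row and all Gsdmc copies into another, 2 of 4 gasdermin rows were past the threshold for L against WT (the Gsdma and Gsdmc sums). For L against NL 3 of 4 were. DESeq2 called 1 member, Gsdma, for NL against WT, and it called 12 of the list genes for L against NL and 7 for UVB in WT nodes. Over all genes, DESeq2 called 2002 with UVB in WT nodes and the compared groups alone gave 2431, against 805, which fell to 7 without WT replicate 3 without UVB, 29 without WT UVB replicate 9 and 0 without WT UVB replicate 8. L against NL gave 3156 with the compared groups alone, and 1470 and 1182 without NL replicate 2 and 3, against 4782. Leaving out 1 library at a time gave 5 to 7 members past the threshold for L against WT, 2 to 5 for L against NL (2 without either NL library), and 0 in every other comparison. It gave 8 to 17 list genes for L against WT (8 without WT replicate 8 or 9), 1 to 8 for L against NL (1 without either NL library), and 0 to 8 for UVB in WT nodes. The cause of these shifts was not tested; fewer libraries were fitted.

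Some small differences that passed no test changed sign or came to 0.0 when 1 library was left out. For NL against WT the log2 difference ran from −0.38 to 0.17 for Gsdma2, from −4.19 to 4.34 for Gsdmc4, where leaving out a library can leave a group with 0 counts, and from −0.24 to 0.0 for Gsdme. In lesional skin Gsdme, described with no test, ran from −0.27 to 0.05 against WT and from −0.11 to 0.2 against NL. With UVB in TG nodes it ran from −0.03 to 0.49 for Gsdmd and from −0.04 to 0.31 for Gsdme. For TG against WT without UVB it ran from −0.16 to 0.11 and from 0.0 to 0.17, and after UVB from −0.25 to 0.26 and from −0.11 to 0.24. For the interaction it ran from −0.2 to 0.32 and from −0.2 to 0.15. Of 541 alternative values of single members, 500 kept their direction and side of the threshold.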

Other observations

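Genes next to the gasdermins, within 100000 bases of each cluster, were looked at after the values were seen. In this comparison 43.1% of all genes passed. Around the Gsdma cluster 4 of 7 tested genes passed edgeR's test between L and WT skin, with Ikzf3 (log2 difference 1.6) and Psmd3 (0.51) higher and Thra (−0.82) and Nr1d1 (−1.22) lower. Ormdl3, a regulator of sphingolipid synthesis, did not pass (−0.3, edgeR adjusted p 0.122). Beside the Gsdmc cluster the 1 tested gene, Fam49b, had a log2 difference of 0.05 (edgeR adjusted p 0.782). Around Gsdmd 2 of 8 tested genes were higher, Eef1d (0.26) and Tsta3 (0.43), and beside Gsdme 1 of 2 was lower, Mpp6 (−0.44).

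Gsdmc4, filtered from the node tests, could be fitted when no filter was used. In WT nodes its log2 difference with UVB was −3.14 (SE 1.2, edgeR adjusted p 0.182), on 0 or 1 counts a library with UVB against 1, 9 and 11 without, and in TG nodes the edgeR adjusted p was 0.772.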
